A study of Mus musculus with 11 samples.

Results

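HIV integration sites led by NELFA were compared with those led by its partners NELFB and NELFCD, 3 of the 11 libraries of the series, taken because all 3 are NELF subunits sequenced on the same flow cell. The fourth NELF library, NELFE, lay on the same flow cell but was kept out of the comparison and is given beside it where useful. NELFA held 30109 distinct sites, NELFB 30960 and NELFCD 41265, of 831994 in the series, where a site is a distinct combination of chromosome, position and strand on the mouse assembly mm9. All the cells were C57BL/6 mouse embryonic fibroblasts that lack LEDGF (LEDGF-/-), the chromatin protein that normally guides the HIV integrase into active genes. Each culture was electroporated with a plasmid for 1 protein fused to the integrase-binding domain of LEDGF (LEDGF-IBD), infected with HIV 24 hours later and grown for 3 days more. The fused protein thus takes the place of LEDGF, and the viral DNA marks places near which that protein met chromatin. The fusion comes from a plasmid beside the cells' own NELF, and no library without a fused protein was analysed here.

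NELF, the negative elongation factor, binds RNA polymerase II together with DSIF soon after a gene's start and holds it there until the kinase P-TEFb releases it. NELFA (gene Whsc2 in the annotation used) pairs with NELFCD (Th1l) in one lobe of the complex, and NELFB (Cobra1) pairs with the RNA-binding subunit NELFE (Rdbp) in the other. In human cells NELF also takes part, with the cap-binding complex, in making the ends of replication-dependent histone mRNAs.

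The sequences below show what the data consist of at the 4 protein-coding starts with the most sites within 1 kb over the 3 libraries. Each runs from 270 bases before the annotated start to 29 bases after its first base, 5′ to 3′ on the strand of the gene, and a capital marks a base at which at least 1 provirus of the 3 libraries begins. They come from the NCBIM37 genome (mm9).
Tob2, chr15:81688727-81689026, minus strand: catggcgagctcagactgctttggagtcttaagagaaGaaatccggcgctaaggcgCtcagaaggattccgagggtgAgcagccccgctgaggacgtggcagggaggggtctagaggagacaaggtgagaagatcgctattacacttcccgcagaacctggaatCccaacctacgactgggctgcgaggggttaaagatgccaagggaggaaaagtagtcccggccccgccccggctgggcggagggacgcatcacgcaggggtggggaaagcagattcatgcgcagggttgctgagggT
Hist1h3c, chr13:23837442-23837741, minus strand: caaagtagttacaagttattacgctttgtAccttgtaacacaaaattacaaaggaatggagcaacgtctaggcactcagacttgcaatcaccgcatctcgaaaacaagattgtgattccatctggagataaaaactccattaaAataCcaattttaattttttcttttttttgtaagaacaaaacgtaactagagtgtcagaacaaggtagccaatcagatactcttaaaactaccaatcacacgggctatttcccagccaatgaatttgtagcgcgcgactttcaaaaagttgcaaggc
Hist1h3i, chr13:21875237-21875536, minus strand: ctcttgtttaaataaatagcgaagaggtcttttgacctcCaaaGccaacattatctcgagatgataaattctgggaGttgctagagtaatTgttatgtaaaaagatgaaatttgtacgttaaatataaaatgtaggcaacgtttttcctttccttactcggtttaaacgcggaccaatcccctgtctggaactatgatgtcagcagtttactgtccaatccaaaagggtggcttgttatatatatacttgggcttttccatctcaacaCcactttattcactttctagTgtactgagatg
Dpagt1, chr9:44134658-44134957, plus strand: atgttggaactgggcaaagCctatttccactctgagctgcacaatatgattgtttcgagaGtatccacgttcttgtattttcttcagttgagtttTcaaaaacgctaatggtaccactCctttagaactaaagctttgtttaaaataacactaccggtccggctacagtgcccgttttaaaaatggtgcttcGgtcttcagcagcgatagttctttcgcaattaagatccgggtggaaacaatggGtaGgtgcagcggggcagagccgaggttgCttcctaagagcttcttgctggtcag

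Tob2 encodes a protein of the antiproliferative BTG/TOB family, Hist1h3c and Hist1h3i encode histone H3, and Dpagt1 encodes the enzyme that starts N-glycan precursor synthesis. In the Tob2 window 2 capitals belong to NELFA, 0 to NELFB and 3 to NELFCD. The Hist1h3c window has 1 from NELFA, 0 from NELFB and 2 from NELFCD, and the Hist1h3i window has 2 from each. In the Dpagt1 window NELFA has 4, NELFB 1 and NELFCD 4, and 1 position, 210 bases before the start, was found in both NELFA and NELFCD. Within the whole 1 kb on each side, Tob2 had 16 NELFA, 9 NELFB and 18 NELFCD sites, and Hist1h3c had 20, 12 and 6. Hist1h3i had 17 NELFA, 9 NELFB and 14 NELFCD sites, and Dpagt1 had 9 NELFA, 18 NELFB and 10 NELFCD sites. No base is hit often, so the position of a library relative to the start can be read only over many genes.

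The libraries differed in more than the fused protein. Each had a lane of its own, so the lane and the protein cannot be told apart. The first number behind each read name, taken here as reads per site, had a median of 45 in NELFA, 14 in NELFB and 13 in NELFCD. The second, taken as a fragment length, had a median of 120 in NELFA, 120 in NELFB and 141 in NELFCD. NELFA shared 640 of its positions with any other library of the series, NELFB 754 and NELFCD 839. There was 1 library per protein. Intervals below are exact 95% intervals that cover counting error only, amplified reads are not independent molecules, and an exact permutation test over 3 libraries cannot go below p = 0.333.

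NELFA had a larger share of its sites at the start itself than NELFB and NELFCD, and a smaller share just downstream of it. Of the sites within 1 kb of a protein-coding start, 10.3% lay within 100 bases of it in NELFA (627 of 6064, 9.58 to 11.1), against 5.92% in NELFB (420 of 7089, 5.39 to 6.50) and 5.51% in NELFCD (501 of 9097, 5.05 to 6.00). Between 100 and 400 bases downstream the order turned, with 19.7% in NELFA (18.7 to 20.7), 26.1% in NELFB (25.04 to 27.1) and 25.7% in NELFCD (24.8 to 26.6). Between 100 and 400 bases upstream the shares were 18.3% (17.3 to 19.3) in NELFA, 15.01% (14.2 to 15.9) in NELFB and 16.7% (15.96 to 17.5) in NELFCD. In each of the first 2 zones the NELFA interval lay apart from both others, while those of NELFB and NELFCD overlapped.

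**Figure D1:**
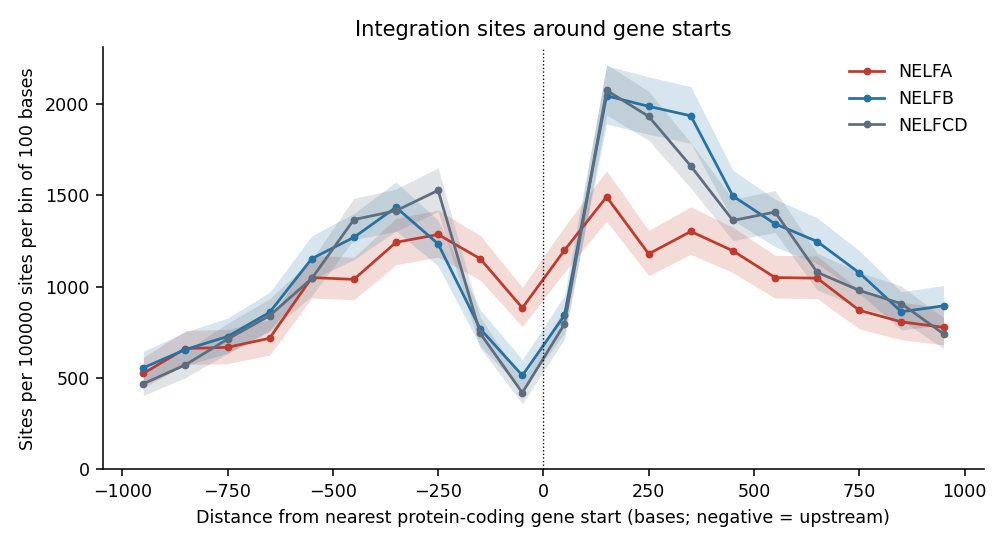
Sites per 100000 sites of a library (vertical axis) in bins of 100 bases by distance from the nearest protein-coding gene start (horizontal axis, bases, negative upstream), for NELFA, NELFB and NELFCD; bands are exact 95% intervals for counting error. NELFA lies above the other 2 libraries from 200 bases upstream to 100 bases downstream, and below them from 100 to 900 bases downstream.

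All 3 libraries peaked in the same bin of 100 bases, 100 to 200 bases downstream, at 1491 sites per 100000 in NELFA (1357 to 1635), 2045 in NELFB (1890 to 2208) and 2074 in NELFCD (1939 to 2217). They also shared their lowest bin within 500 bases, the 100 bases just upstream of the start, with 883.5 in NELFA (780.9 to 995.7), 513.6 in NELFB (437.0 to 599.6) and 419.2 in NELFCD (359.2 to 486.4). NELFA thus had the shallower dip and the lower peak. In its lowest bin NELFA stood 10.7-fold over the density of uniform positions, NELFB 6.25-fold and NELFCD 5.10-fold. At the peak the folds were 18.003 for NELFA, 24.7 for NELFB and 25.04 for NELFCD. With bins of 200 bases NELFA was highest at 0 to 200 bases (16.1-fold) and about as high at 400 to 200 bases upstream (16.1-fold). At 200 to 400 bases downstream NELFA stood at 15.2-fold, while NELFB and NELFCD were both highest there, at 23.98-fold and 21.96-fold.

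NELFA exceeded both partners in 3 neighbouring bins of 100 bases and was below both in the bins that follow. From 200 bases upstream to 100 downstream it had 3235 sites per 100000 (3038 to 3441), against 2125 in NELFB (1968 to 2292) and 1958 in NELFCD (1827 to 2096), which is 1.52 times NELFB and 1.65 times NELFCD. From 100 to 400 bases downstream it had 3972 (3754 to 4199), against 5966 in NELFB (5704 to 6235) and 5666 in NELFCD (5445 to 5893), or 0.666 and 0.701 times. NELFB over NELFCD was 1.09 in the first of these zones and 1.05 in the second. The largest single ratios were in the 100 bases before the start, 1.72 over NELFB and 2.11 over NELFCD, where NELFB over NELFCD was 1.22. The deficit went on beyond this: from 400 to 1000 bases downstream NELFA had 5746 sites per 100000 (5486 to 6015), NELFB 6919 (6638 to 7207) and NELFCD 6475 (6240 to 6717). Upstream, NELFA was also below both partners at 500 to 400 bases, at 0.819 times NELFB and 0.761 times NELFCD. At 400 to 300 bases it was at 0.866 and 0.878 times. Farther upstream NELFA was below both at 800 to 700 bases (0.919 and 0.937 times) and at 700 to 600 bases (0.835 and 0.853 times). At 900 to 800 bases NELFA was above both, at 1.01 and 1.16 times. From 1 to 5 kb downstream NELFCD was the library that stood apart, with 9476 sites per 100000 in NELFA (9147 to 9812), 9874 in NELFB (9544 to 10212) and 8346 in NELFCD (8081 to 8617). NELFB over NELFCD was 1.18 there. That is more than in the zones from 200 bases upstream to 100 downstream (1.09) and from 100 to 400 downstream (1.05). It is less than in the 100 bases before the start (1.22). From 1 to 5 kb upstream NELFA was 0.947 times NELFB and 1.07 times NELFCD.

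**Figure D2:**
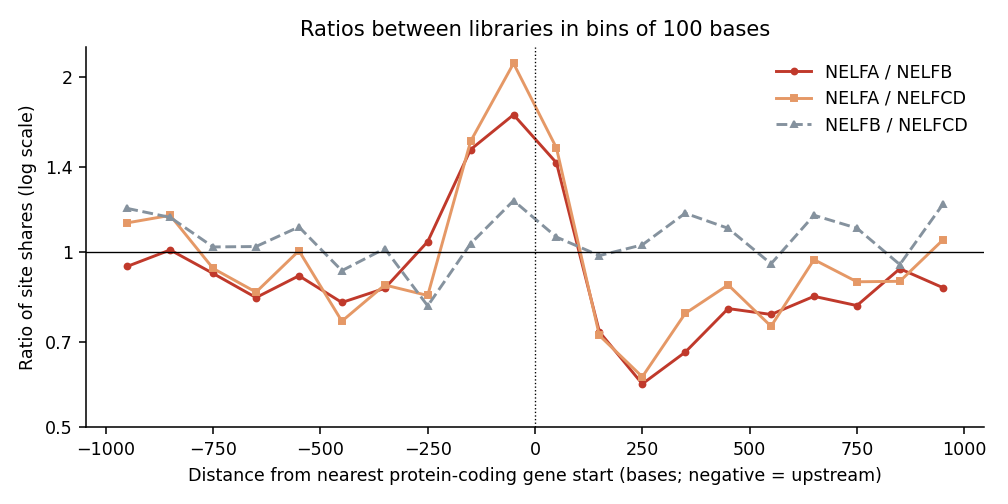
Ratio of the shares of sites per bin of 100 bases (vertical axis, log scale) by distance from the nearest protein-coding start (horizontal axis, bases, negative upstream), for NELFA over NELFB, NELFA over NELFCD and NELFB over NELFCD. Both NELFA ratios are highest in the 100 bases before the start, at 1.72 and 2.11, and lowest at 200 to 300 bases downstream, at 0.594 and 0.610, while NELFB over NELFCD stays between 0.808 and 1.22.

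Summed over a whole side, the libraries differed downstream. Upstream sites within 1 kb were 9.22% of all NELFA sites (8.90 to 9.56), 9.17% of NELFB sites (8.85 to 9.50) and 9.11% of NELFCD sites (8.83 to 9.39), with overlapping intervals. This equal sum holds differences of both signs. NELFA was above its partners in the 200 bases before the start, and below them from 500 to 300 and from 800 to 600 bases before it. Downstream sites were 10.9% in NELFA (10.6 to 11.3), 13.7% in NELFB (13.3 to 14.1) and 12.9% in NELFCD (12.6 to 13.3). Together 20.1% of NELFA sites lay within 1 kb of a start, against 22.9% of NELFB and 22.05% of NELFCD sites. Among these, 45.8% were upstream in NELFA (44.5 to 47.1), 40.05% in NELFB (38.9 to 41.2) and 41.3% in NELFCD (40.3 to 42.3). NELFA stood 5.11 percentage points over the mean of its partners in this share. Without sites within 200 bases of the start, an alternative added after the values were seen, the difference was 3.51 points. The median distance from the start was 407 bases upstream and 426 downstream in NELFA, 451 and 403.5 in NELFB, and 431 and 401 in NELFCD.

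At single starts the counts were too small to show this. Among the next most hit starts, Hist1h3g, for a histone H3, had 16 NELFA sites within 1 kb, 4 of them within 100 bases, against 5 with 2 in NELFB and 12 with 0 in NELFCD. Id3, for an inhibitor of basic helix-loop-helix factors, had 9 NELFA, 12 NELFB and 11 NELFCD sites, with 1 within 100 bases in each library. Hmga1, for an architectural chromatin protein, had 9 NELFA sites, 7 of them upstream, against 14 with 8 upstream in NELFB and 8 with 6 upstream in NELFCD. Ppia, for the prolyl isomerase cyclophilin A, had 8 NELFA, 14 NELFB and 7 NELFCD sites, with 2, 3 and 0 within 100 bases. Lgals1, for galectin-1, had 6 NELFA, 11 NELFB and 11 NELFCD sites and 0 within 100 bases in any of them. All 3 libraries thus reached these starts, and which of them had a site within 100 bases varied from gene to gene.

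The larger NELFA share at the start was spread over many genes. With NELFB and NELFCD thinned at random to the size of NELFA, NELFA reached 551 starts within 100 bases, NELFB 356 and NELFCD 337, of 22350 protein-coding starts. At the same size NELFA reached fewer starts within 1 kb, 3849, against 4202 in NELFB and 4088 in NELFCD. In the libraries at full size, 14.3% of the starts that NELFA reached within 1 kb had a site within 100 bases. In NELFB it was 8.51% and in NELFCD 8.88%. This difference from the mean of the partners, 5.62 percentage points, is a share of starts. It is not on the same measure as the 4.62 points for the share of sites. The share within 100 bases was higher in NELFA than in both partners on 20 of 20 chromosomes, and the upstream share on 15 of 20.

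Every class of starts that was examined by neighbours, base composition or SPT5 had the higher share within 100 bases in NELFA. At starts with no other start within 5 kb it was 8.98% in NELFA (8.09 to 9.93), 5.13% in NELFB (4.50 to 5.82) and 5.07% in NELFCD (4.52 to 5.67). At divergent starts, where a gene on the opposite strand starts within 1 kb upstream, it was 11.3% in NELFA (9.13 to 13.7), 6.39% in NELFB (4.96 to 8.09) and 6.27% in NELFCD (4.95 to 7.80). Divergent starts can turn upstream sites of one gene into downstream sites of its neighbour. Without them, an alternative added after the values were seen, NELFA stood 4.92 percentage points over the mean of its partners in the upstream share. In the share within 100 bases it stood 4.58 points over it. With all starts these differences were 5.11 and 4.62 points. The part of divergent starts in the result was not tested.

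GC-rich starts, typical of broadly expressed genes, carried the sharpest dip in all 3 libraries. In the tercile of starts with the highest GC content over 500 bases (at least 62.4%), the share within 100 bases was 8.19% in NELFA (7.27 to 9.19), 4.07% in NELFB (3.47 to 4.74) and 3.76% in NELFCD (3.26 to 4.32). In the middle tercile it was 12.2% in NELFA (10.9 to 13.7), 7.77% in NELFB (6.77 to 8.86) and 7.33% in NELFCD (6.46 to 8.27). In the lowest tercile (under 51.8%) it was 14.9% in NELFA (12.1 to 18.05), 9.93% in NELFB (7.63 to 12.6) and 9.45% in NELFCD (7.43 to 11.8), where the intervals of NELFA and NELFB overlap. At starts with an observed over expected CpG ratio of at least 0.6 the upstream share was 47.1% in NELFA, 40.3% in NELFB and 42.4% in NELFCD. Below 0.6 it was 40.1% (37.3 to 43.1) in NELFA, 39.01% (36.3 to 41.7) in NELFB and 36.4% (33.99 to 38.8) in NELFCD, so the side could not be told apart there beyond counting error. The share within 100 bases in that class was 12.5% in NELFA (10.6 to 14.6), 9.60% in NELFB (8.05 to 11.3) and 8.92% in NELFCD (7.56 to 10.4). The NELFA and NELFB intervals overlap there. At the 531 starts with TATAAA shortly before them it was 12.7% in NELFA (8.05 to 18.8), 8.67% in NELFB (4.70 to 14.4) and 9.60% in NELFCD (5.88 to 14.6), all overlapping.

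SPT5, the large subunit of DSIF, had its own library in the series on another flow cell. At the 7140 starts with an SPT5 site within 1 kb, the share within 100 bases was 10.2% in NELFA (9.36 to 11.1), 6.19% in NELFB (5.58 to 6.85) and 5.47% in NELFCD (4.96 to 6.02). At the 15210 other starts it was 10.8% in NELFA (9.19 to 12.7), 4.87% in NELFB (3.81 to 6.11) and 5.65% in NELFCD (4.63 to 6.81). The NELFA share was thus much the same at both kinds of start.

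**Figure D3:**
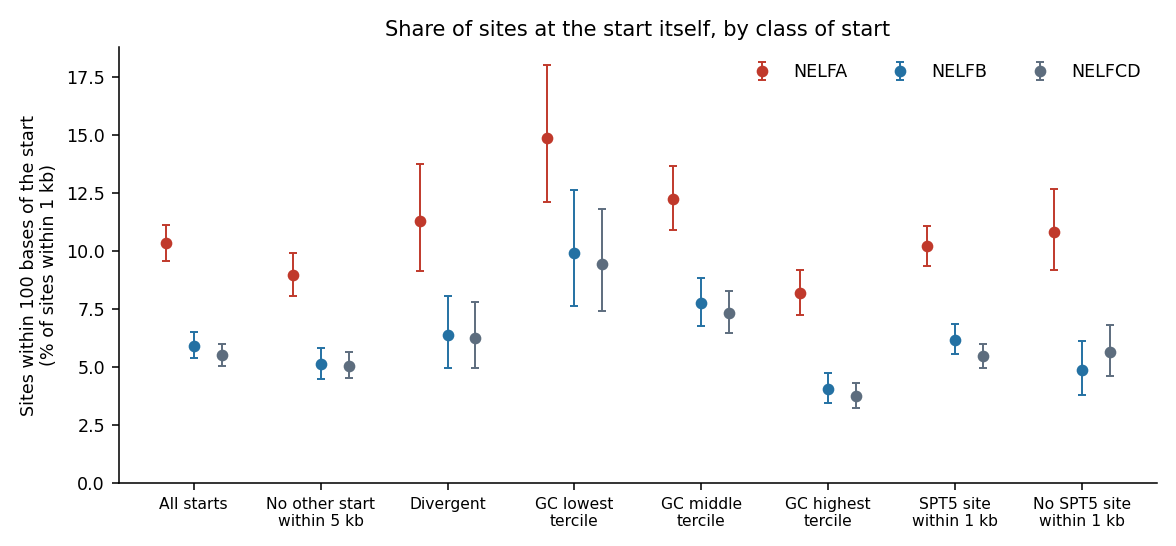
Share of the sites within 1 kb of a start that lie within 100 bases of it (vertical axis, percent) for classes of protein-coding starts (horizontal axis), with exact 95% binomial intervals for counting error. In each of the 8 classes the NELFA point, at 8.19% to 14.9%, lies above those of NELFB and NELFCD, and in the lowest tercile of GC content the NELFA and NELFB intervals overlap.

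A high density at the start, relative to the zones beside it, was not particular to NELFA in the series. Per base, the 200 bases around the start held 0.816 times the density of the zones from 100 to 400 bases on both sides in NELFA, 0.433 times in NELFB and 0.389 times in NELFCD. The same ratio was 0.750 in NELFE, the subunit left out, and 1.05 in SPT5. NELFB and NELFCD had the 2 lowest ratios of the 11 libraries. NELFE also had 8.61% of its sites within 1 kb at the start itself (216 of 2510, 7.54 to 9.77) and 43.1% of them upstream (41.2 to 45.07). The remaining libraries, all of Integrator subunits and their partners, ran from 0.503 in NABP1 to 0.836 in INIP, which was above NELFA but rests on 75 sites within 100 bases. INTS3 had 0.511, NABP2 0.547, INTS9 0.674 and INTS11 0.745. NELFE differed from the other 3 in how often it was near starts at all: 13.4% of its sites lay within 1 kb.

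Base composition at the sites also differed a little between the libraries, and its part in the result was not tested beyond the classes above. Over 200 bases the mean GC content was 46.2% at NELFA sites, 47.4% at NELFB and 46.9% at NELFCD sites. Far from starts, over 5 kb away, it was 43.3% in NELFA, 44.3% in NELFB and 43.7% in NELFCD. At sites within 100 bases of a start it was 61.9% ± 8.94 in NELFA (SD over 627 sites), 60.7% ± 9.31 in NELFB (420 sites) and 60.5% ± 9.35 in NELFCD (501 sites). Within 1 kb of starts it was 55.1% in NELFA, 55.5% in NELFB and 55.5% in NELFCD, and from 100 to 400 bases downstream 62.3% in NELFA, 62.2% in NELFB and 62.97% in NELFCD. NELFA was thus the lowest over all sites, and the highest within 100 bases of starts.

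The direction of the provirus relative to the gene gave small differences. Downstream of the start 51.8% of NELFA sites lay on the strand of the gene (50.09 to 53.5), 50.1% of NELFB sites (48.6 to 51.7) and 50.5% of NELFCD sites (49.2 to 51.9). Upstream it was 47.03% in NELFA (45.2 to 48.9), 49.4% in NELFB (47.6 to 51.3) and 47.6% in NELFCD (46.04 to 49.3). Within 100 bases of the start the shares were 41.1% in NELFA (37.3 to 45.1), 52.1% in NELFB (47.2 to 57.01) and 42.3% in NELFCD (37.95 to 46.8), so here NELFA and NELFCD lay together and NELFB apart. Over whole genes NELFCD stood apart: 53.2% of NELFA (52.7 to 53.8), 53.001% of NELFB (52.4 to 53.6) and 51.7% of NELFCD sites (51.2 to 52.2) lay inside protein-coding genes. Within 5 kb of starts, 35.4% of NELFA (34.9 to 35.97), 38.9% of NELFB (38.4 to 39.5) and 35.8% of NELFCD sites (35.4 to 36.3) were found, and 4.51% of NELFA, 4.53% of NELFB and 4.12% of NELFCD sites within 1 kb of a gene end.

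Replication-dependent histone genes, which are read in bursts during DNA synthesis, were the most densely hit list in all 3 libraries. Within 1 kb of their starts NELFA had the most sites per 100000. Within 1 kb of the starts of the 67 genes, NELFA had 346 sites, or 1149 per 100000 (1031 to 1277), NELFB 209 sites, or 675.1 (586.6 to 773.1), and NELFCD 269 sites, or 651.9 (576.3 to 734.6). NELFA was 1.73 times the mean of the partners there. Of the 67 genes 41 had more NELFA sites per 100000 within 1 kb than either partner and 5 had fewer. Equal raw counts above 0 score as more in NELFA, since 1 site is 3.32 per 100000 in NELFA, 3.23 in NELFB and 2.42 in NELFCD. Olfactory receptor genes with 5 kb on each side scored 43 above and 5 below. NELFA was nonetheless the least dense library there, at 0.316-fold over uniform against 0.423 and 0.425. The count for histone genes was not made over all protein-coding starts, so it has no background to be read against. With each site given to its nearest start, the gene with most NELFA sites, Hist1h3i, held 4.91% of those within 1 kb. Upstream, from 400 to 100 bases before the start, NELFA had 172.7 per 100000 (129.0 to 226.5), NELFB 90.4 (60.1 to 130.7) and NELFCD 82.4 (57.1 to 115.1). The excess was not confined to the start. From 400 to 1000 bases downstream NELFA had 135 of its 346 sites, or 448.4 per 100000 (375.9 to 530.7). NELFB had 226.1 there (176.3 to 285.7) and NELFCD 264.1 (216.9 to 318.6).

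Farther from histone starts the order turned. From 1 to 5 kb downstream NELFA had 465.0 sites per 100000 (391.1 to 548.7), NELFB 791.3 (695.3 to 896.9) and NELFCD 453.2 (390.5 to 523.0). From 1 to 5 kb upstream NELFA had 119.6 (83.7 to 165.5), NELFB 235.8 (184.8 to 296.5) and NELFCD 123.6 (92.02 to 162.5). Here NELFB was the library that stood apart. Over whole genes with 5 kb on each side the densities were therefore 123.1-fold over uniform in NELFA (112.9 to 134.0), 124.8-fold in NELFB (114.7 to 135.6) and 89.997-fold in NELFCD (82.6 to 97.9). Unlike other starts, histone starts showed no clear dip in NELFB: the share within 100 bases was 16.8% in NELFA (12.98 to 21.1), 17.7% in NELFB (12.8 to 23.6) and 11.2% in NELFCD (7.65 to 15.5). The genes lie in tight clusters, so sites of neighbours fall into several windows and members are not independent.

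Ribosomal protein genes, which are read at a high and steady rate, went the other way. The 84 genes with 5 kb on each side held 101 NELFA sites, 7.38-fold over uniform (6.01 to 8.97), 175 NELFB sites, 12.4-fold (10.7 to 14.4), and 224 NELFCD sites, 11.9-fold (10.4 to 13.6). NELFA was 0.605 times the mean of its partners, and within 1 kb of the starts, where the counts were 37, 71 and 114, it was 0.486 times. The gap was widest 100 to 400 bases downstream, with 3 sites in NELFA, or 9.96 per 100000 (2.05 to 29.1), 24 in NELFB, or 77.5 (49.7 to 115.3), and 30 in NELFCD, or 72.7 (49.05 to 103.8). Within 1 kb 12 of the 84 genes had more NELFA sites per 100000 than either partner and 19 had fewer. This count too scores equal raw counts above 0 as more in NELFA, and it was not made over all starts. Single members held few sites: Rpl12 had 4 in NELFA, 8 in NELFB and 13 in NELFCD, and Rps2 had 8, 5 and 7. For comparison, over all protein-coding starts the NELFA share within 1 kb was 20.1%, against 22.9% in NELFB and 22.05% in NELFCD.

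**Figure D4:**
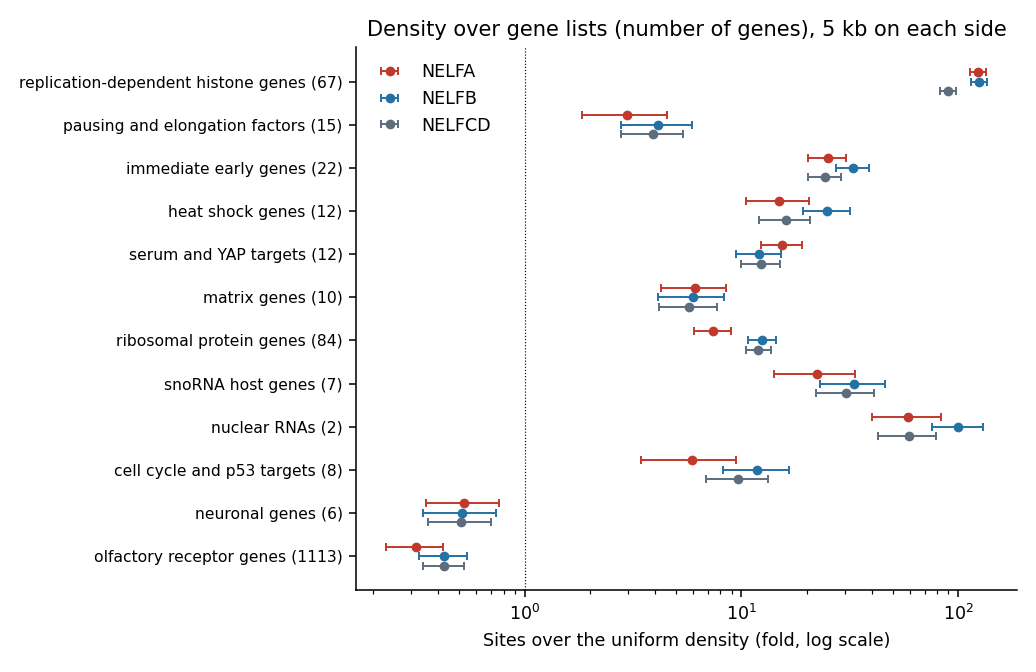
Density of sites over gene lists, each gene extended by 5 kb to both sides, as the fold over uniform positions (horizontal axis, log scale), with the number of genes in brackets and exact 95% Poisson intervals for counting error. NELFA lies below both partners with separate intervals at ribosomal protein genes (7.38, 12.4 and 11.9), and NELFA and NELFB lie above NELFCD at histone genes (123.1, 124.8 and 89.997).

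In the other lists the NELFA interval overlapped those of both partners. Cell cycle and p53 targets, such as the cyclin gene Ccnd1 and the cell cycle inhibitor gene Cdkn1a, had 17 NELFA sites (5.92-fold, 3.45 to 9.48), 35 NELFB sites (11.8-fold, 8.25 to 16.5) and 38 NELFCD sites (9.65-fold, 6.83 to 13.3), and NELFA was 0.550 times the mean of its partners. Heat shock genes stood at 14.9-fold in NELFA (10.5 to 20.4), 24.8-fold in NELFB (19.1 to 31.6) and 16.01-fold in NELFCD (12.1 to 20.8), and their most hit member Hspa1b, for an inducible HSP70, had 10 NELFA, 22 NELFB and 20 NELFCD sites. Immediate early genes, the first to be read after a growth signal, stood at 24.9-fold in NELFA, 32.8-fold in NELFB and 24.2-fold in NELFCD. Among them Junb had 13 NELFA, 17 NELFB and 10 NELFCD sites, and Ier2 had 5, 16 and 13. Serum and YAP targets were at 15.4-fold in NELFA (12.3 to 19.0), 12.04-fold in NELFB (9.39 to 15.2) and 12.3-fold in NELFCD (9.92 to 14.99), led by the matricellular gene Cyr61 with 17 NELFA, 13 NELFB and 19 NELFCD sites.

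The nuclear RNA genes Neat1, which builds paraspeckles, and Malat1, found in nuclear speckles, stood at 58.7-fold in NELFA (40.2 to 82.9), 99.96-fold in NELFB (75.5 to 129.8) and 58.9-fold in NELFCD (42.8 to 79.1). Host genes of small nucleolar RNAs were at 22.3-fold in NELFA, 33.0-fold in NELFB and 30.4-fold in NELFCD, with overlapping intervals. Of these, Snhg12 had 1 NELFA, 8 NELFB and 8 NELFCD sites. The 15 pausing and elongation factors, NELF and DSIF subunits among them, held 21 NELFA, 30 NELFB and 38 NELFCD sites, 2.97-, 4.13- and 3.92-fold over uniform. Matrix genes of fibroblasts, such as Col1a1 and Sparc, stood at 6.12-fold in NELFA, 5.95-fold in NELFB and 5.74-fold in NELFCD. Among genes of other tissues, 6 neuronal genes stood at 0.526-fold in NELFA, 0.512-fold in NELFB and 0.508-fold in NELFCD, and 1113 olfactory receptor genes at 0.316-, 0.423- and 0.425-fold. The 3 blood cell genes had 1 NELFA, 2 NELFB and 2 NELFCD sites (0.554-, 1.08- and 0.809-fold over uniform), and the 3 liver genes 2, 1 and 1 (3.09-, 1.504- and 1.13-fold), too few to place either list above or below uniform.

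No single gene passed the test between NELFA and its partners. Genes with 5 kb on each side and a mean of at least 10 sites over the 3 libraries numbered 262, and limma with Benjamini-Hochberg adjustment called 0 higher (0.0%) and 0 lower (0.0%) in NELFA, with NELFB and NELFCD standing in for replicates. Its smallest adjusted p was 0.98, and 8 genes had an unadjusted p under 0.05. The median difference on the scale of log2(sites per 100000 + 1) was 0.02, and the median SD between NELFB and NELFCD was 0.32. As a description without a test, 0 genes (0.0%) were past 2-fold above both partners and 9 (3.44%) past 2-fold below both. Between the partners themselves, NELFB was past 2-fold above NELFCD at 28 genes and below it at 8. Of the 54 histone genes tested 0 were past 2-fold either way, and their median difference was 0.20, against 0.02 over all 262. Of 5 immediate early genes tested 1, Fosl1, was past 2-fold below both. The minimum applies to the mean of the 3 libraries, so it favours genes high in the 2 partners over genes high in NELFA alone. The 0 and 9 carry that lean. The histone gene Hist1h1e fell under the minimum with 19 NELFA, 5 NELFB and 5 NELFCD sites (63.1, 16.1 and 12.1 per 100000). At a mean of at least 5 sites, 31 genes were past 2-fold above both partners and 124 below both.

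Of the 9 genes that were lower, Rarg, for a nuclear receptor of retinoic acid (chr15:102065369-102087948), had 2 NELFA, 8 NELFB and 21 NELFCD sites, a log2 difference of -2.29 ± 1.98 (SE; limma adjusted p = 0.98). Its partners were at 25.8 sites per 100000 in NELFB (11.2 to 50.9) and 50.9 in NELFCD (31.5 to 77.8), with overlapping intervals. Cdh13, for a cadherin anchored by a lipid (chr8:120807633-121848821), had 3, 16 and 17 sites in NELFA, NELFB and NELFCD, with a log2 difference of -2.10 ± 0.77 and a limma unadjusted p of 0.00643. S100a5, for a calcium-binding protein, had 3 NELFA, 18 NELFB and 13 NELFCD sites, with log2 differences of -2.43 from NELFB and -1.57 from NELFCD. At Cdh13 the partners were close, at 51.7 sites per 100000 in NELFB and 41.2 in NELFCD. At S100a5 they were at 58.1 in NELFB (34.5 to 91.9) and 31.5 in NELFCD (16.8 to 53.9), with overlapping intervals.

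Fosl1, for an AP-1 subunit, had 3 NELFA, 12 NELFB and 16 NELFCD sites, and Hnrnpl, for a splicing regulator, had 4, 15 and 14. Mbd3, for a subunit of the NuRD chromatin remodeller, had 4 NELFA, 13 NELFB and 16 NELFCD sites. Sorbs2, for an adaptor of the actin cytoskeleton, had the most sites of the 9, with 12 in NELFA, 37 in NELFB and 37 in NELFCD. Mdc1, for a mediator of the DNA damage response, had 6, 15 and 22, and Midn, for a nuclear protein that leads others to the proteasome, had 6, 14 and 17. Among the 262 genes tested, the largest positive differences stayed under 2-fold against at least 1 partner. They were 1.09 (log2) at the noncoding gene D230017M19Rik, with 23 NELFA, 10 NELFB and 16 NELFCD sites, 1.02 at a U2 snRNA gene, with 14, 8 and 8, and 1.02 at Setd1b, for a histone H3 lysine methyltransferase, with 31, 19 and 17.

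**Figure D5:**
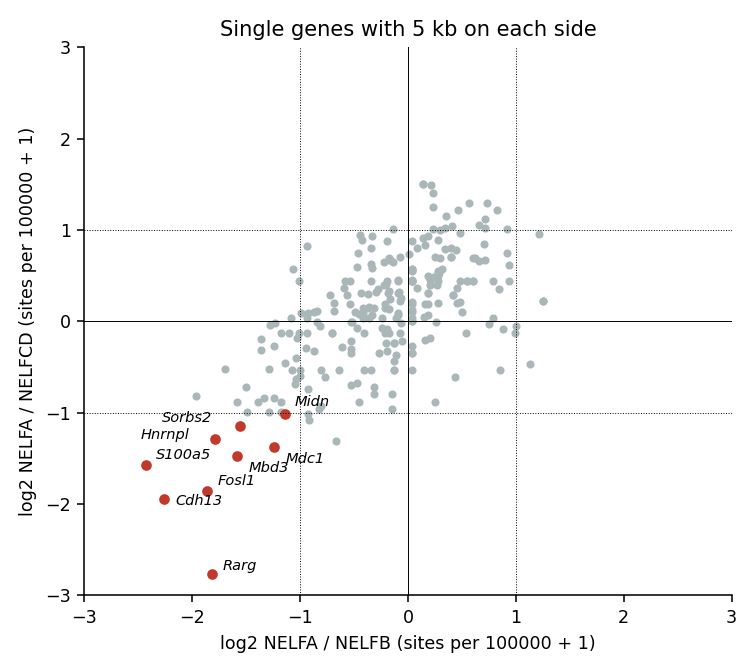
Each point is 1 of 262 genes with 5 kb on each side, by log2 of NELFA over NELFB (horizontal axis) and of NELFA over NELFCD (vertical axis), both on sites per 100000 + 1; dotted lines mark 2-fold. The 9 named genes past 2-fold below both partners are at the lower left, and 0 genes are past 2-fold above both; the ratios share the NELFA library, so points follow a diagonal.

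The loci with the most sites were common to the 3 libraries. This ranking counts sites and is not scaled to length, so a long gene model can rank high without a high density. The long gene model Gm20388 on distal chromosome 8 (chr8:122434741-126869622), had 455.0 sites per 100000 in NELFA (382.0 to 537.9), 539.4 in NELFB (460.7 to 627.7) and 479.8 in NELFCD (415.3 to 551.5). Hist1h3i had 162.7 in NELFA, 161.5 in NELFB and 96.9 in NELFCD, and the locus of Hist1h2be had 169.4, 109.8 and 104.2. Fgfr2, for a fibroblast growth factor receptor, whose model here also runs over a long stretch (chr7:137305965-140315033), had 132.9 in NELFA, 119.5 in NELFB and 128.4 in NELFCD. Tex14, known for germ cell bridges, had 106.3 in NELFA, 100.1 in NELFB and 82.4 in NELFCD. None of these genes was past 2-fold against either partner.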

How the data were processed

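HIV integration sites of 11 libraries, 1 per fused protein, were deposited as position lists. Per the labels' protocols, DNA spanning the viral LTR and the flanking genome was enriched with LTR and linker primers in nested PCR, and its ends were read on Illumina instruments. Reads were placed on mm9, per the submitters' processing notes, and no aligner or read filter is named in the sources used here. The values the authors deposited are positions and not counts: per the file headers, each entry gives the first base beyond the LTR and its strand.

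Entries were collapsed to distinct chromosome, position and strand (30781 entries in NELFA, 31659 in NELFB and 41897 in NELFCD). Base preference at the junction showed the minus strand to be 1 base off, and those sites were moved by 1 base. GENCODE gene models of that assembly (37252 genes, 22350 protein-coding) were used, and a start is the outer end of a gene. Distances are signed to the nearest start, and uniform density assumes equal use of every base of chromosomes 1 to 19 and X. Shares have Clopper-Pearson and densities Poisson intervals (95%, scipy 1.17.1). Single genes were fitted with limma 3.58.1 (trend, robust) in R 4.3.3 on log2(sites per 100000 + 1), a scale that understates changes of low genes, and called at an adjusted p of 0.05. This needed no counts from the authors, since distinct positions were counted here. Simulated data were used to test the start distances and limma steps.

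Members, lists and tests were chosen with earlier results of these data known. Genes named are those past 2-fold against both partners in the same direction, the most hit genes and starts, and the most hit members of each list, where a gene that shares over 50% of its sites with one ranked above it is given with that one. The 3 largest positive differences and Hist1h1e were added after their values were seen. So were the zones of the histone and ribosomal protein lists and some alternatives.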

Additional observations from a re-analysis of the deposited data

How the results depend on the processing

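No paired analysis was possible because each protein had 1 library. The 3 libraries lie in different lanes, so no value within a lane can be had. Over all results 111 alternative values kept their direction, and their side of the threshold or their size, while 28 moved and 4 reversed. The difference in upstream share (5.11 points) was 6.93 in a window of 500 bases, 3.58 in one of 2 kb and 3.51 without sites within 200 bases. The difference within 100 bases (4.62) was 7.82 and 3.30 in windows of 500 bases and 2 kb, and 3.66 with NELFE added. Taken as a share of the starts reached, which is another measure than the share of sites, it was 5.62. The difference in the share within 1 kb of starts (-2.33) was -2.83 without histone genes, -2.82 with a first read-name number of at least 20, an alternative chosen after seeing the data, and 0.698, reversed, with NELFE added. NELFE has fewer sites near starts.

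Genes called lower by limma (0) were 1 with a mean of at least 5 sites (Fez2, adjusted p = 0.00704), 1 without positions found in several libraries (Cdh13, adjusted p = 0.00314) and 3 with no trend and no robust setting (Rarg, Cdh13 and S100a5). Genes past 2-fold above both partners (0) were 31 at a mean of at least 5, 2 in thinned libraries, 1 without shared positions and 13 for 1 kb around the start with a mean of at least 5. Against 1 partner alone they were 5 to 19. Genes past 2-fold below both (9) were 124 at a mean of at least 5, 1 at 20, 5 in thinned libraries, 3 with NELFE added, 0 for 1 kb around the start, where 9 genes were left, and 17 there at a mean of at least 5. Against 1 partner alone they were 12 to 40.

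NELFA over the mean of its partners was 1.15 at histone genes, 1.73 within 1 kb of their starts and 0.986 (reversed, without NELFCD) to 1.37 against 1 partner alone. It was 0.876 at immediate early genes, 1.12, reversed, within 1 kb of starts and 0.761 to 1.03 (reversed, without NELFB) against 1 partner alone, and 0.605 and 0.486 at ribosomal protein genes. Causes of these shifts were not tested. At 30109 to 41265 sites per library most single genes hold few sites, and with 1 NELFA library its own spread could not be estimated.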

Other observations

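The bases at the integration site itself differed between the libraries in a way the comparisons above do not use. HIV integrase favours a weak palindrome over the 5 bases it duplicates. G stood at the first of these bases in 43.4% of NELFA, 43.9% of NELFB and 38.0% of NELFCD sites, where the genome has 20.9% G. C stood at the fifth in 41.9% of NELFA, 41.9% of NELFB and 37.8% of NELFCD sites. T at the first base had 11.4% in NELFA, 12.6% in NELFB and 22.02% in NELFCD. NELFCD thus had the weaker pattern, while at gene starts NELFA was the library that stood apart.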
